A study of Arabidopsis thaliana with 8 samples.

Results

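Plates TA37 to TA51 of a tiling array of Arabidopsis thaliana chromosome 4 form the longest unbroken series of plates with low log ratios in a profile of histone H3 dimethylated at lysine 4 (H3K4me2). The members are the tiles of these 15 plates that have a value in all 8 columns of the value table, 1343 of 21296 measured tiles (6.31%), on 15 of 231 plates. The plates were chosen by the log ratio itself, as consecutive plates whose median lay more than 1 below the array median, so their low level is a description and was not tested. The material was whole seedlings of C24, an Arabidopsis accession, kept untreated in liquid medium until an age of 10 days. DNA immunoprecipitated with an antibody to H3K4me2 (IP) and the input DNA competed on each array, with 2 arrays of opposite dyes for each of 4 replicates (I to IV, 50 µg each). All arrays belong to a single group, C24 IP against input, so no other accession or hybrid is compared.

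H3K4me2 is placed by methyltransferases of the trithorax type on the tail of histone H3, and in plants it is known mainly from genes and their flanks in euchromatin. Heterochromatin, rich in transposons and marked by H3K9 methylation and DNA methylation, is known to carry little of it. In Arabidopsis, chromosome 4 is known for heterochromatin around its centromere and, in some accessions, for a heterochromatic knob on its short arm. The tiles could not be matched to coordinates, genes or sequences with the tables at hand, so whether TA37 to TA51 lie in either of these cannot be told, and tiles are named by plate, row and column (TA37C01 is plate TA37, row C, column 1). Their order below is that of plate, row and column.

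The direction of the deposited log ratio (IP over input, or the reverse) and its log base are unknown here. Both arrays of a dye swap hold the same value at each of the 21296 measured tiles, so the direction cannot be read from the dyes, and the 8 columns give n = 4. Values are in deposited log ratio units minus the median of all measured tiles of that replicate, and "below" and "above" refer to that median. If the ratio were input over IP, every sign would turn, so the label "low H3K4me2" could not be checked. The deposited medians were -0.79, -0.46, -0.89 and -0.35 in I to IV. Whether I to IV are separate cultures is not in the labels, so their spread may be technical, and signal over background is unknown.

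In all 4 replicates the tiles of TA37 to TA51 lay far below the array median. The median over the 1343 tiles was -2.33, -2.14, -2.38 and -2.11 in replicates I to IV, a mean of -2.24 ± 0.13 (SD, n = 4). The tiles had a 5th percentile of -3.52 ± 0.12 and a 95th percentile of -0.16 ± 0.07, so that nearly the whole distribution was on the low side. With limma's moderated test over all measured tiles, 1266 members (94.3%) were below the array median at a Benjamini-Hochberg adjusted p of 0.05, beside 42.3% of all tiles. Above the median were 33 members (2.46%), beside 42.2% of all tiles, and 44 members passed in neither direction. Because this contrast chose the plates, nothing is read from these shares beyond their size.

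The block was deep as well as long. Of its tiles, 799 (59.5%) had a mean more than 2 below the median, beside 13.4% over the array, and 222 (16.5%) more than 3 below, beside 3.92%. These were 28.0% of all array tiles under -2 and 26.6% of those under -3. Only 12 tiles lay under -4 (0.894%, beside 0.333%), on 6 plates, which is 16.9% of such tiles on the array.

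Every plate of the block was low in every replicate (the plot of plate medians). The lowest was TA44, with plate medians of -2.75, -2.57, -2.63 and -2.37 in replicates I to IV. The highest was TA48, with -1.75, -1.64, -1.67 and -1.43 in the same order. All 4 values of TA48 were above all 4 of TA44. As means over replicates, TA40 to TA45 had medians from -2.58 to -2.31, and TA46 to TA51 from -2.26 to -1.62. In every single replicate these sets overlapped, and in I, for one, TA47 at -2.32 lay below TA41 at -2.28. TA37, TA38 and TA39, before them, were at -2.35, -2.05 and -2.14. TA52, just past the limit of -1, was at -0.61 ± 0.14 (SD, n = 4), and TA36 on the other side was at 0.07 ± 0.09.

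**Figure D1:**
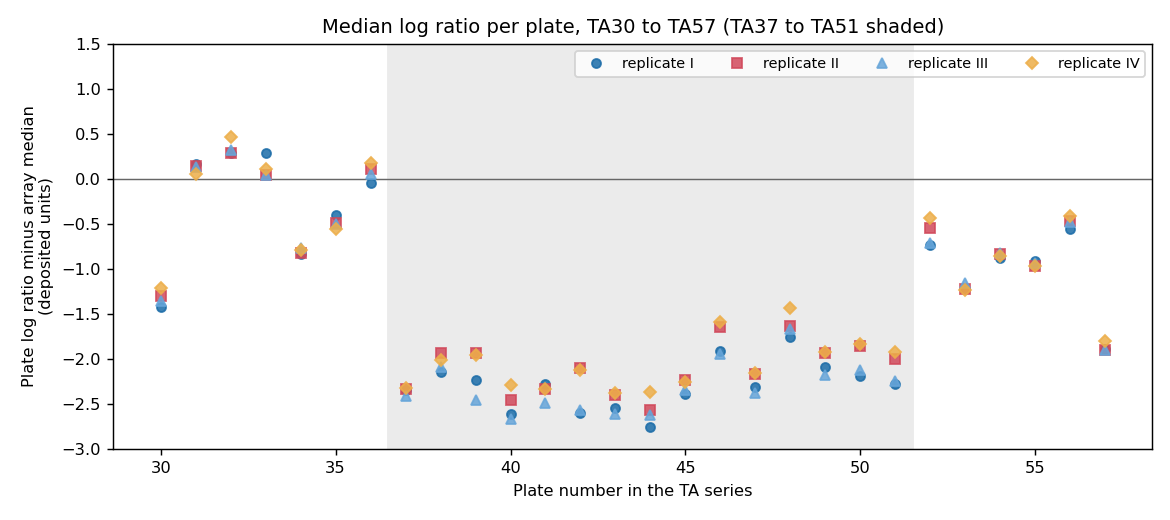
Median log ratio over the tiles of each plate (vertical axis, deposited units minus the array median) against plate number in the TA series (horizontal axis), with 1 point per replicate (I to IV). The 15 shaded plates lie between -2.75 and -1.43 in all replicates, and TA36 and TA52 on either side lie between -0.74 and 0.18.

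The plate limits did not coincide with the limits of the low values. Rows B to D of TA36 had row medians of 1.13 ± 0.06, 0.92 ± 0.20 and 0.42 ± 0.06 (SD, n = 4), but its last rows G and H were at -1.67 ± 0.14 and -2.12 ± 0.28. Over the last 24 tiles before TA37, 19 were below the median by limma and 2 above, with a median of -1.74 ± 0.15. The 24 tiles that open TA37 had a median of -1.99 ± 0.23. Those that close TA51 had one of -1.33 ± 0.09, and the 24 tiles of TA52A and TA52B one of -1.41 ± 0.19, with 22 of 24 below on each side of that limit. Row TA52C was at -0.43 ± 0.15 and TA52E at 0.57 ± 0.03. Row medians under -1 thus continued for 2 rows of 12 wells beyond each limit, although single tiles in these rows reached 0.88 before TA37 and 0.37 after TA51.

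The tiles at these limits were uneven before TA37 and even after TA51. TA36H10, TA36H11 and TA36H12 had means of 0.29, -2.34 and -0.50, and the first of them did not pass limma's threshold. TA37A01, TA37A02 and TA37A03, which open the block, were at -3.19 ± 0.09, -0.96 ± 0.19 and -4.05 ± 0.09 (SD, n = 4). At the other limit TA51H10 to TA51H12 were at -1.57, -1.16 and -1.73, and TA52A01 to TA52A03 at -1.56, -1.45 and -1.52.

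Within the block low values came in long unbroken stretches (the plot of all members). Consecutive tiles below the median by limma formed 41 runs, and the 9 runs of 50 tiles or more held 858 tiles. The longest, 134 tiles from TA42G02 to TA44B03, had a mean of -2.53, -2.27, -2.59 and -2.26 in replicates I to IV, and its highest tile was at -0.40. It ended at TA44B04 (0.40), the single tile of that plate above the median. The next, 107 tiles from TA46G11 to TA47H09, had means of -2.37, -2.27, -2.35 and -2.26 in I to IV. On 7 of the 15 plates no tile was above the median by limma, and on 6 (TA40, TA42, TA43, TA45, TA46 and TA49) no tile had a mean over 0.

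**Figure D2:**
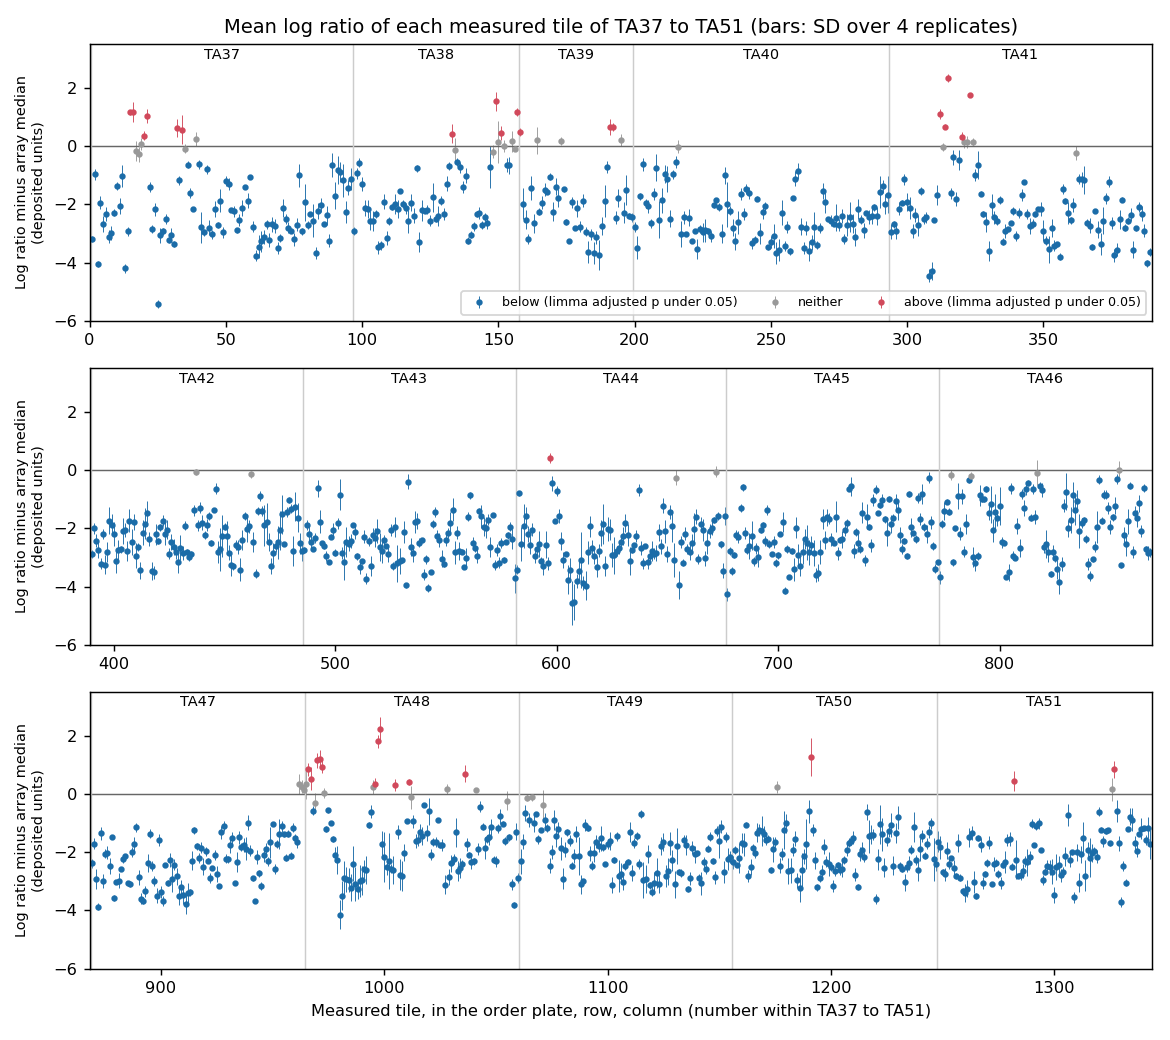
Mean log ratio of each of the 1343 members (vertical axis, deposited units minus the array median; bars, SD over 4 replicates) in the order plate, row, column (horizontal axis), in 3 panels of 5 plates. Blue tiles were below and red tiles above the array median by limma, and grey ones neither; the 33 red tiles are grouped on TA37 to TA39, TA41 and TA48, with single ones on TA44 and TA50 and 2 on TA51.

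Taken in rows of 12 wells, the block had 119 rows, of which 8 had a median over -1. The highest of these were TA39G at 0.20 over 5 tiles, TA38G at 0.09 over 6 tiles and TA48A at 0.07 ± 0.20 (SD, n = 4) over 12. The lowest was TA44C, with row medians of -3.92, -3.27, -3.83 and -3.02 in replicates I to IV. In a moving window of 24 measured tiles the median was lowest from TA47B10 to TA47D09, at -3.16 ± 0.07. It was highest from TA47G12 to TA48A11, at -0.60 ± 0.10. Both extremes thus lay within a span of less than 2 plates, and no window had a median over 0.

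The 33 tiles above the median stood alone or in short runs. They formed 23 runs, of which 15 were single tiles and 8 held the other 18 tiles, and none was longer than 3 tiles. TA37, TA38, TA39, TA41 and TA48 held 29 of them. These counts depend on where 0 is set: without centring 11 members were above 0, and with each replicate centred on its mode 13 were. A mean over the median was found in 53 members (3.95%), beside 50.2% of all tiles. In all 4 replicates 39 members (2.90%) were over the median, beside 43% of all tiles, and 13 had a mean over 1, beside 22.3%. TA38 and TA39 list 62 and 42 tiles where the other 13 plates list 96, so neighbours there can have unlisted wells between them.

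Plate TA41 had the highest member. TA41B10 was at 2.36, 2.52, 2.23 and 2.26 in replicates I to IV, and TA41B09 before it had a mean of 0.67. The next well, TA41B11, was at -1.63, a fall of 3.97 between adjacent wells. A few wells earlier, TA41B03 and TA41B04 were among the 5 lowest members, at -4.45 ± 0.23 and -4.29 ± 0.32 (SD, n = 4). The 4th lowest and the highest member of the block, by mean, thus stood within 8 wells of each other. TA41C06 stood out of a stretch of values near 0, with 1.85, 1.70, 1.77 and 1.68 in replicates I to IV between neighbours at 0.15 and 0.13.

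Plate TA48 held both runs of 3 tiles above the median. From TA48A06 to TA48A08 the mean over the run was 1.19, 0.85, 1.14 and 1.22 in replicates I to IV. From TA48C08 to TA48C10 it was 1.36, 1.43, 1.41 and 1.64. Most of the latter came from TA48C10, at 2.22 ± 0.43, and TA48C09, at 1.81 ± 0.22 (SD, n = 4), with TA48C11 after them at -1.71. TA48C08 itself was at 0.35 ± 0.18 and did not pass limma's threshold when replicate II (adjusted p = 0.061) or III (adjusted p = 0.056) was left out. Between these runs row TA48B was among the lowest rows, at -2.97 ± 0.48, with its highest tile at -1.54.

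**Figure D3:**
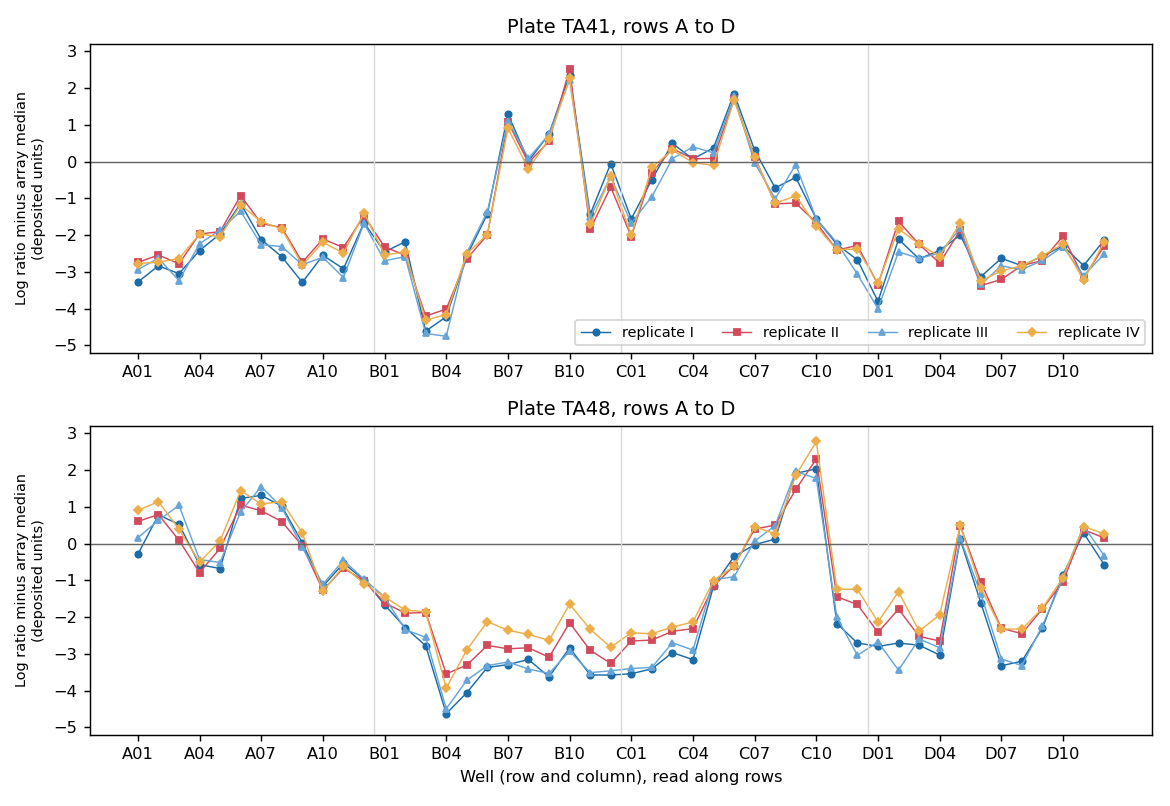
Log ratio of each tile in rows A to D of plates TA41 and TA48 (vertical axis, deposited units minus the array median) by well (horizontal axis), with 1 line per replicate (I to IV). TA41B10 and TA48C10, with means over 2, are each followed by a well with a mean under -1. The replicates lie closer together in row TA41B than in row TA48B.

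TA37 held the lowest member, TA37C01, at -5.27, -5.60, -5.35 and -5.46 in replicates I to IV, between neighbours at -2.17 and -3.07. It also held 6 tiles above the median by limma, among them TA37B03 and TA37B04, the first by position of 6 runs of 2 tiles. Their means over the run were 1.06, 1.37, 1.03 and 1.20 in replicates I to IV, and the well before them, TA37B02, was at -2.93. This step of 4.09 was the largest between adjacent wells of the block. TA38G03, the 5th highest member, was at 1.54 ± 0.32 (SD, n = 4), next to TA38G02 at -0.20.

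Most tiles of the block were low, so neighbours are set beside the block median of -2.24. By the medians over 20 members, neighbours were below it for the lowest members and above it for the highest. TA44C02 and TA44C03, the 2nd and 3rd lowest members, stood side by side at -4.56 ± 0.75 and -4.54 ± 0.62 (SD, n = 4). Over the 20 lowest members the median was -4.05, and the mean of the 2 neighbouring tiles had a median of -3.07. Over the 20 highest members these values were 1.15 and 0.01, with neighbour means from -2.07 to 1.29. A tile and its neighbours share chromatin and plate, so these values describe the order and are not independent.

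Adjacent tiles of the block were alike, with Pearson's r = 0.495 ± 0.013 (SD over 4 replicates, 1307 pairs of tiles, a description across tiles that share plates and arrays). At a distance of 2 tiles r was 0.346 ± 0.017, at 5 tiles 0.178 ± 0.023 and at 12 tiles 0.073 ± 0.014. With plate medians removed, r between adjacent tiles was 0.46 ± 0.01. Read down the columns of the plates, r was 0.0474 ± 0.0086. Neighbours along rows were thus more alike than neighbours down columns. The median step between adjacent wells, 0.60 in the block, was 0.57 on the rest of the array, and steps over 2 made up 4.82% and 5.29%.

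Set beside the other long low stretches, TA37 to TA51 lay nearer to TC17 to TC30 than to TA21 to TA30 (the plot of distributions). The median of TC17 to TC30 differed from that of the block by -0.003 ± 0.026 (block minus TC17 to TC30, SD, n = 4), with the sign divided evenly over replicates. The median of TA21 to TA30 was higher than that of the block by 0.18, 0.16, 0.24 and 0.19 in replicates I to IV. The spread of the block over tiles was narrower, with an SD of 1.03 ± 0.02. That of TA21 to TA30 was higher by 0.48, 0.43, 0.46 and 0.47 in replicates I to IV. Tiles above the median by limma were 2.46% of the block, 2.64% of TC17 to TC30 and 11.9% of TA21 to TA30. All 3 stretches were picked by their low medians, so these differences give sizes and were not tested. Tiles under -4 made up 3.28% of TA21 to TA30 and 0.894% of the block.

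**Figure D4:**
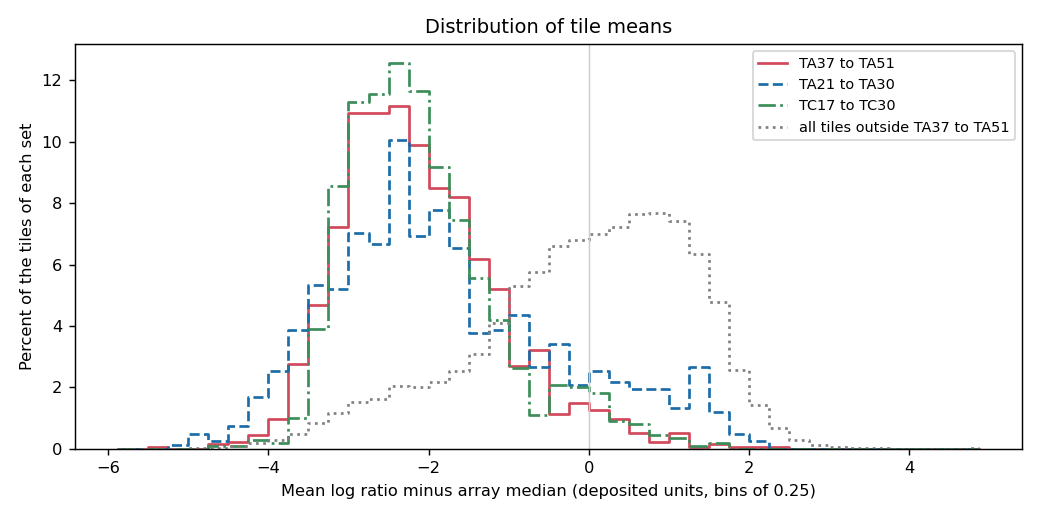
Percent of tiles (vertical axis) by mean log ratio in bins of 0.25 (horizontal axis, deposited units minus the array median) for TA37 to TA51, TA21 to TA30, TC17 to TC30 and all tiles outside TA37 to TA51. The curves of TA37 to TA51 and TC17 to TC30 lie close together, and that of TA21 to TA30 has more tiles over 0 and under -4.

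The plates between and after these stretches differed from the block in the same way in all replicates. The block was cut where plate medians rose over -1, so higher medians beside it follow in part from that choice. The differences below give sizes and were not tested. TA31 to TA36, which precede it, had a median higher by 2.16 ± 0.13 (SD, n = 4). Of their tiles, 38.3% were above the array median by limma and 42.6% below, beside 42.2% and 42.3% of all tiles. TA52 to TA56, which follow it, had a median higher by 1.45 ± 0.10, with 21.2% above and 65.4% below. Between adjacent tiles r was higher there than in the block, at 0.70 ± 0.01 and 0.68 ± 0.01. The SD over tiles was also wider, at 1.40 ± 0.01 and 1.34 ± 0.03 beside 1.03 ± 0.02. Steps between adjacent wells were of like size, with medians of 0.55 and 0.60 beside 0.60 in the block.

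The replicates did not give the block the same depth. By the labels, I and II share a slide number per dye orientation, as do III and IV. Within the block the tile-by-tile difference had a median of 0.17 for II minus I and of 0.21 for IV minus III, and II and IV were the higher in 65.6% and 68.7% of tiles. On all other tiles these medians were 0.02 and 0.01. The plate medians of the difference were over 0 on 13 plates for II minus I and on 14 for IV minus III (the plot of replicate differences). They were largest on TA42 for II minus I, at 0.43, and on TA44 for IV minus III, at 0.41, and lowest on TA37, at -0.07 and -0.02. After quantile normalization of the replicates the medians over the block were 0.07 and 0.13.

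**Figure D5:**
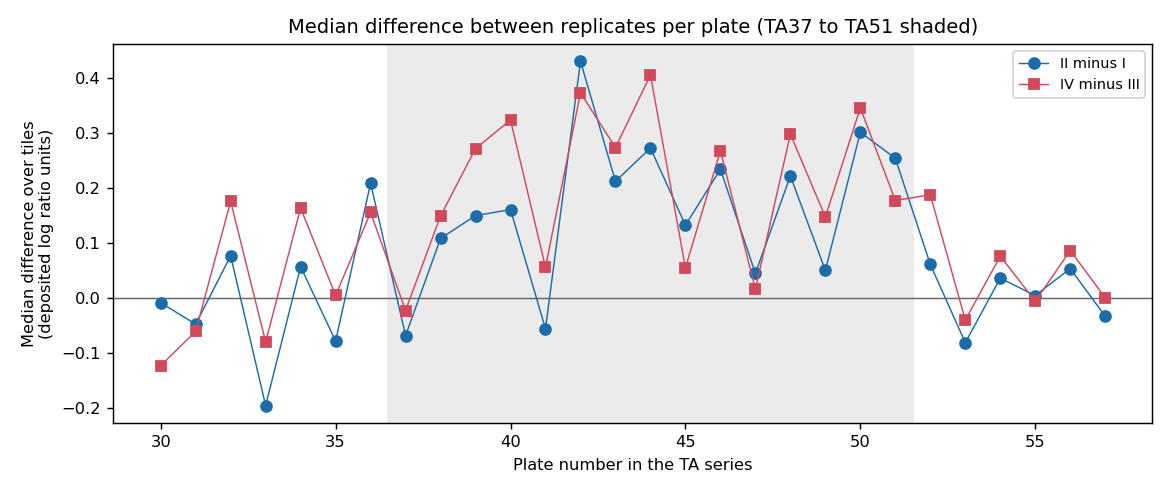
Median over the tiles of a plate of the difference between replicates, II minus I and IV minus III (vertical axis, deposited log ratio units), against plate number in the TA series (horizontal axis), with TA37 to TA51 shaded. Both differences are over 0 on 13 of the 15 shaded plates and reach 0.43 and 0.41.

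Tiles of the same level elsewhere on the array did not, as a set, show this difference. Among tiles with a mean from -3 to -1, the medians of II minus I and IV minus III were 0.22 and 0.23 over 954 members of the block, and -0.01 and 0.01 over 3813 other tiles. In the same range they were 0.26 and 0.26 in TC17 to TC30, and 0.13 and 0.13 in TA21 to TA30. What sets I and III apart from II and IV was not tested. The members with the widest spread, picked after their values were seen, were also divided into I and III against II and IV. This pairing was not particular to the block. On all other tiles r was 0.984 for I with III and 0.985 for II with IV, against at most 0.945 for other pairs. TA44C06 was at -3.89, -2.26, -3.98 and -2.25 in replicates I to IV. TA48D02 was at -2.70, -1.78, -3.44 and -1.31. A spread of more than 0.5 (SD, n = 4) was found in 88 members (6.55%), beside 6.18% of all tiles, and the median spread of a tile was 0.22 in both sets.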

How the data were processed

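The deposited value table holds 1 signed score per tile and array, a processed log ratio of the 2 channels. The software, background correction, normalization, log base and direction behind these scores are not stated in the labels or the file. Per the labels' protocols, the DNA was amplified and then carried Cy3 or Cy5 by direct labelling. Both columns of a dye swap held identical scores and were used as 1 value. Each replicate was centred on the median of its 21296 measured tiles, with no loess or quantile step. Of the 1352 listed tiles of TA37 to TA51, 9 had no value. One limma model (version 3.58.1, R 4.3.3, with empirical Bayes moderation) tested the 4 values of each measured tile against 0, with Benjamini-Hochberg adjustment at 0.05 over all of them. It was tested on simulated data with independent replicates, which does not cover replicates that resemble each other in pairs. The p-values treat the replicates as independent, although I resembles III and II resembles IV more than the other pairs (r over the members 0.974 and 0.978, against at most 0.924). Averaging those pairs to 2 values left 1257 members below and 24 above. That fit used a spread in effect pooled over tiles, so it cannot tell how far the calls depend on the pairing. Other statistics used Python 3.11.15, numpy 2.4.6 and pandas 2.3.3.

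The members, plates and comparison stretches were chosen with earlier results of these data known. Named tiles are the 5 lowest and 5 highest members, the 3 longest runs above and 2 longest below, 3 tiles on either side of each limit, and the extreme plates. A planned contrast of II and IV against I and III is not reported, because those pairs were found in the data, and the pairs sharing a slide number are given in its place. No sequence is shown, since none is tied to a tile here. The number of arrays limits the precision, with a median standard error of 0.11 per member.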

Additional observations from a re-analysis of the deposited data

Results flagged for a closer look

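Of 87 sets of 4 replicate values examined, 2 had 1 replicate far from the rest, and chance sets apart about 1 in 20 such sets. The difference in interquartile range between TA37 to TA51 and TC17 to TC30 was 0.11, 0.11, 0.10 and 0.02 in replicates I to IV, where IV stood off by 0.879 of the range. The difference in the percent of tiles over the array median, block minus TC17 to TC30, was -0.893, -0.959, 0.58 and -1.14 in replicates I to IV, where III stood off by 0.856 of the range.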

How the results depend on the processing

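The counts of tiles and runs above the median depended on the zero and on a minimum difference. Tiles above numbered 33, and 13 with centring on the mode, 11 without centring and 15 with a minimum difference of 0.58; runs of 2 tiles or more numbered 8, and 3, 2 and 3 under these settings, and 2 with wells read down columns. The block median moved from -2.24 to -2.87 with the mode and -2.86 without centring, which shift all tiles by -0.63 and -0.62, and to -2.10 as a mean over tiles. TA36H10 turned from 0.29 to -0.35 with the mode and -0.33 without centring, and TA48C08 from 0.35 to -0.28 and -0.27. The adjacent-tile r fell to 0.0474 down columns. The cause was not tested beyond the change of zero or order. With a replicate left out, tiles below ranged from 1262 to 1266, tiles above from 31 to 32, runs from 8 to 9 and the median from -2.28 to -2.19. Without the edge plates TA37 and TA51, 10 results were recomputed. Counts stayed within 1.5 times, and medians, SD, r and differences between stretches within their spread. Counts fall with the tiles taken out (tiles below from 1266 to 1088), so for them that limit says little. II minus I was then 0.18 beside 0.17, and IV minus III 0.23 beside 0.21. The settings for plate medians and named tiles were chosen after seeing the data. The fits with the mode and with averaged pairs used a spread in effect pooled over tiles. No paired analysis was possible because all arrays belong to a single group.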

Other observations

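Well position within a plate went with small differences in the block. With plate medians removed, the lowest column was column 1, with a median of -0.27 ± 0.06 (SD, n = 4). Column 8 was the highest, at 0.21 ± 0.04. On the other plates of the array these columns were at 0.06 ± 0.03 and -0.02 ± 0.02. Row D was the lowest row, at -0.20 ± 0.02, and row H the highest, at 0.28 ± 0.05. On the other plates these rows were at 0.05 ± 0.01 and 0.01 ± 0.02. These columns and rows were picked after their values were seen. The SD is over replicates of the same tiles and not over tiles, and an effect of position was not tested. Of the 12 members under -4, 3 were in column 1, among them TA37C01, and column 1 held 112 of all 1343 members. These 3 tiles also enter the median of that column. Blank tiles were 0.666% of those listed in the block and 2.23% of those listed elsewhere.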
